A study of Mus musculus with 4 samples.

Results

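MicroRNAs of lymphocytes were followed in mouse liver after chronic injury: both arms of miR-150 (mmu-miR-150-5p and mmu-miR-150-3p), both arms of miR-342 (mmu-miR-342-3p and mmu-miR-342-5p), and mmu-miR-155-5p. They were chosen by name, with earlier results of these data known. They are 5 of the 1907 mature miRNAs listed in each library, and all 5 had enough counts to be tested. The 2 TAA libraries came from livers of C57BL/6 mice, 15 weeks old, that had received thioacetamide (TAA), a hepatotoxin that causes liver fibrosis in rodents, into the peritoneum at 200 mg/kg, 3 times per week over 10 weeks. The 2 control libraries came from livers of C57BL/6 mice of the same age, and what the controls were injected with is not given in the labels. The design text calls the libraries of a group biological replicates and names no animals, so the p-values measure the spread between these libraries. The libraries held 43836911 and 48878003 miRNA counts in TAA-treated liver and 42609845 and 46224018 in control liver.

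A microRNA is cut from a hairpin transcript, and 1 strand of the duplex is loaded into an Argonaute protein, where its seed, bases 2 to 8, pairs with target mRNAs. miR-150 is abundant in mature B and T lymphocytes, where it represses the transcription factor Myb. miR-155 is made from the non-coding RNA Mir155hg, is induced when lymphocytes and macrophages are activated, and represses Socs1, a brake on cytokine signalling. miR-342 is encoded within Evl, a gene for an actin regulator, and is found in lymphoid and myeloid cells. In whole liver these miRNAs can come from resident or infiltrating leukocytes. A change in the number of such cells and a change in the miRNA content of each cell cannot be told apart in bulk RNA.

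The 3 hairpins lie on different chromosomes of GRCm38. Mir150 lies at 45121757 to 45121821 of chromosome 7 on the plus strand, in no annotated gene. Mir155 lies at 84714140 to 84714204 of chromosome 16, in an exon of Mir155hg. Mir342 lies at 108658620 to 108658718 of chromosome 12, in an intron of Evl on the same strand. Sequences of 4 of the 5 members, all but miR-150-5p, were found in the RefSeq table, and miR-155-3p is added as the other arm of the miR-155 hairpin. They are shown to compare their seeds, which are in capitals.
miR-150-3p: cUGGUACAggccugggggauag
miR-155-5p: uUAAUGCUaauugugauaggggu
miR-155-3p: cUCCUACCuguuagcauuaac
miR-342-3p: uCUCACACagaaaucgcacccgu
miR-342-5p: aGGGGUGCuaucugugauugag

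These 5 seeds were all different. None of them was also the seed of another of the 1623 mature miRNAs of the files with a sequence in the table. So none of these 5 sequences is the whole sequence of another of those miRNAs. miR-150-5p was not compared. The longest run that any pair of the 5 sequences shared was 6 bases, between miR-155-5p and miR-342-5p. GC content was 34.8% in miR-155-5p, 52.2% in miR-342-3p, 50.0% in miR-342-5p and 63.6% in miR-150-3p. The hairpins of miR-155 and miR-342 are shown to place the arms, in capitals, on their precursors.
Mir155: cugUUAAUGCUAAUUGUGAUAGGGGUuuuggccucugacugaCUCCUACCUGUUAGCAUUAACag
Mir342: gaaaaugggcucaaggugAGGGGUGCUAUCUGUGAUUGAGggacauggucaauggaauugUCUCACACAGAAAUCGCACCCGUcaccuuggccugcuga

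The comparison asks how TAA-treated liver differed from control liver. Of the 5 lymphocyte miRNAs, 4 rose: miR-150-5p, miR-155-5p and both arms of miR-342. The rise was 2.53-fold for miR-150-5p, 1.93-fold for miR-155-5p, 1.62-fold for miR-342-3p and 2.03-fold for miR-342-5p. Significance was taken from edgeR's quasi-likelihood test at an adjusted p under 0.05, with adjustment over all 644 miRNAs tested, of which 14.0% rose. The median log2 fold change was 1.02 over the 5 members and -0.0042 over all miRNAs tested. The CPM of each member, counts scaled to library size, were higher in TAA 1 and TAA 2 than in either control, which held for 29.7% of all miRNAs tested. The members together took 0.0338% and 0.0300% of miRNA counts in TAA-treated liver, against 0.0140% and 0.0142% in control liver.

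miR-150-5p, the main strand of miR-150, had 8533 and 8830 counts in TAA-treated liver, against 2852 and 3190 in control liver. That was 188 and 172 CPM in TAA 1 and TAA 2, against 67.4 and 74.6 CPM in control 1 and control 2. The lower TAA library stood 2.31-fold above the higher control, so the groups were far apart for their spread. The means were 180 ± 11.04 CPM in TAA-treated liver and 71.0 ± 5.13 CPM in control liver (SD, n = 2 each), with a log2 fold change of 1.34 (SE 0.14, edgeR adjusted p = 0.000241). By abundance it ranked 101 and 106 among the miRNAs of the TAA libraries and 151 and 147 in the controls. Its p-value was the second smallest of the 574 miRNAs tested outside the Dlk1-Dio3 interval, the imprinted region of chromosome 12 where most increases lay.

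miR-155-5p, the functional strand of miR-155, had 501 and 616 counts in TAA-treated liver, against 264 and 244 in control liver. Scaled, it measured 11.02 and 12.0 CPM in TAA 1 and TAA 2, against 6.24 and 5.71 CPM in control 1 and control 2. The groups did not overlap, and the libraries within each group lay close together. The log2 fold change was 0.95 (SE 0.19, edgeR adjusted p = 0.0102). It did not pass without TAA 1 (adjusted p = 0.0526) or without TAA 2 (adjusted p = 0.0754), although the log2 fold changes there were 1.004 and 0.89.

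miR-342-3p, the main strand of miR-342, had 5625 and 5071 counts in TAA-treated liver, against 2805 and 3050 in control liver. It measured 124 and 98.8 CPM in TAA 1 and TAA 2, against 66.3 and 71.3 CPM in control 1 and control 2. TAA 1 was the highest library, and TAA 2 was 1.39-fold above the higher control. The log2 fold change was 0.69 (SE 0.16, edgeR adjusted p = 0.0228), the smallest of the 5. It was 0.52 without TAA 1 and 0.85 without TAA 2, and did not pass in either case (adjusted p = 0.228 and 0.0646).

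**Figure D1:**
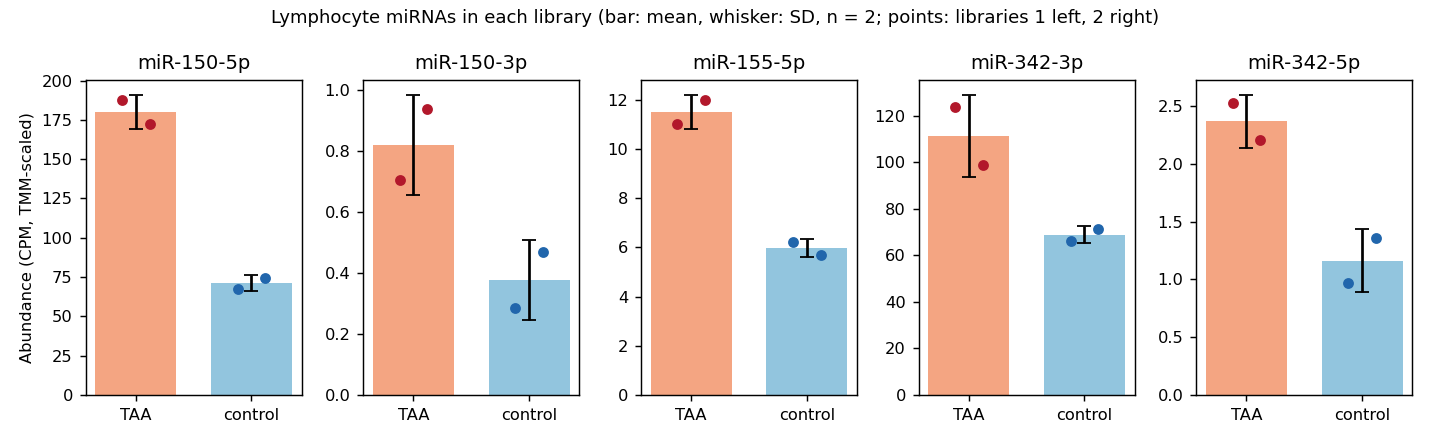
Abundance of the 5 lymphocyte miRNAs in CPM on linear axes that start at 0, with a bar for the mean of 2 libraries, a whisker for the SD and a point for each library. In every panel both TAA points lie above both control points; miR-150-5p averages 180 CPM in TAA-treated and 71.0 CPM in control liver.

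The minor arms were scarce, and their counts limit what can be read from them. miR-342-5p, the minor strand of miR-342, had 115 and 113 counts in TAA-treated liver (95% Poisson intervals 94.9 to 138 and 93.1 to 136), against 41 and 58 in control liver (29.4 to 55.6 and 44.0 to 75.0). It measured 2.53 and 2.20 CPM in TAA 1 and TAA 2, against 0.97 and 1.36 CPM in control 1 and control 2. The log2 fold change was 1.02 (SE 0.29), and its edgeR adjusted p of 0.0482 lay just inside the threshold. It passed under 5 of 14 other settings, and not without TAA 1, TAA 2 or control 1.

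miR-150-3p, the minor strand of miR-150, had 32 and 48 counts in TAA-treated liver (95% Poisson intervals 21.9 to 45.2 and 35.4 to 63.6), against 12 and 20 in control liver (6.20 to 21.0 and 12.2 to 30.9). The intervals of TAA 1 and control 2 overlapped. It measured 0.70 and 0.94 CPM in TAA 1 and TAA 2, against 0.28 and 0.47 CPM in control 1 and control 2. With a log2 fold change of 1.122 (SE 0.45, edgeR adjusted p = 0.159) it was the member that did not pass, and it passed under none of the 13 other settings in which it was tested. Its fold change lay within the range of the members that passed, with the largest standard error of the 5. miR-155-3p, the minor strand of miR-155, had 5 and 0 counts in the TAA libraries and 1 and 0 in the controls, too few to test.

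**Figure D2:**
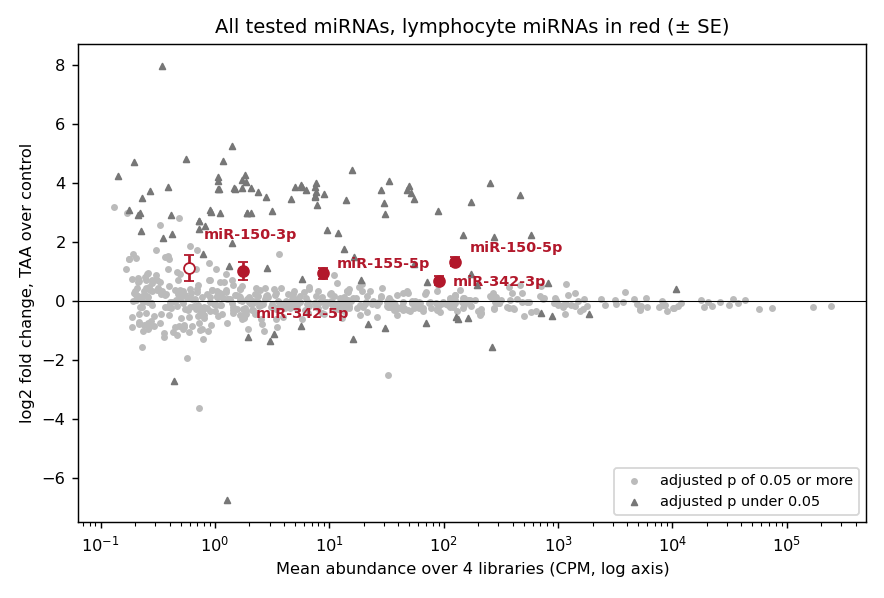
Log2 fold change of TAA-treated over control liver against mean abundance in CPM on a log axis, for the 644 miRNAs tested, with the 5 lymphocyte miRNAs in red with their standard errors (filled where adjusted p is under 0.05). The members lie between 0.69 and 1.34, above the median of all miRNAs tested (-0.0042) and below the group with the largest increases.

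The rises rested on all libraries to unlike degrees. miR-150-5p passed under all 14 other settings, with a log2 fold change between 1.17 and 1.46 and an adjusted p of at most 0.0235. Without TAA 1 and without TAA 2 it was the single member that passed, where 7.53% and 6.87% of all miRNAs tested rose. Without control 1, 3 members rose, against 13.7% of all miRNAs, and without control 2, 4 rose, against 14.2%. With the Dlk1-Dio3 miRNAs removed before scaling, 1.22% of the remaining 574 miRNAs rose, and miR-150-5p (adjusted p = 0.00564) and miR-155-5p (adjusted p = 0.0418) were among these 7. The adjusted p of miR-342-3p was then 0.0713 and that of miR-342-5p 0.0921, with log2 fold changes of 0.73 and 1.06.

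**Figure D3:**
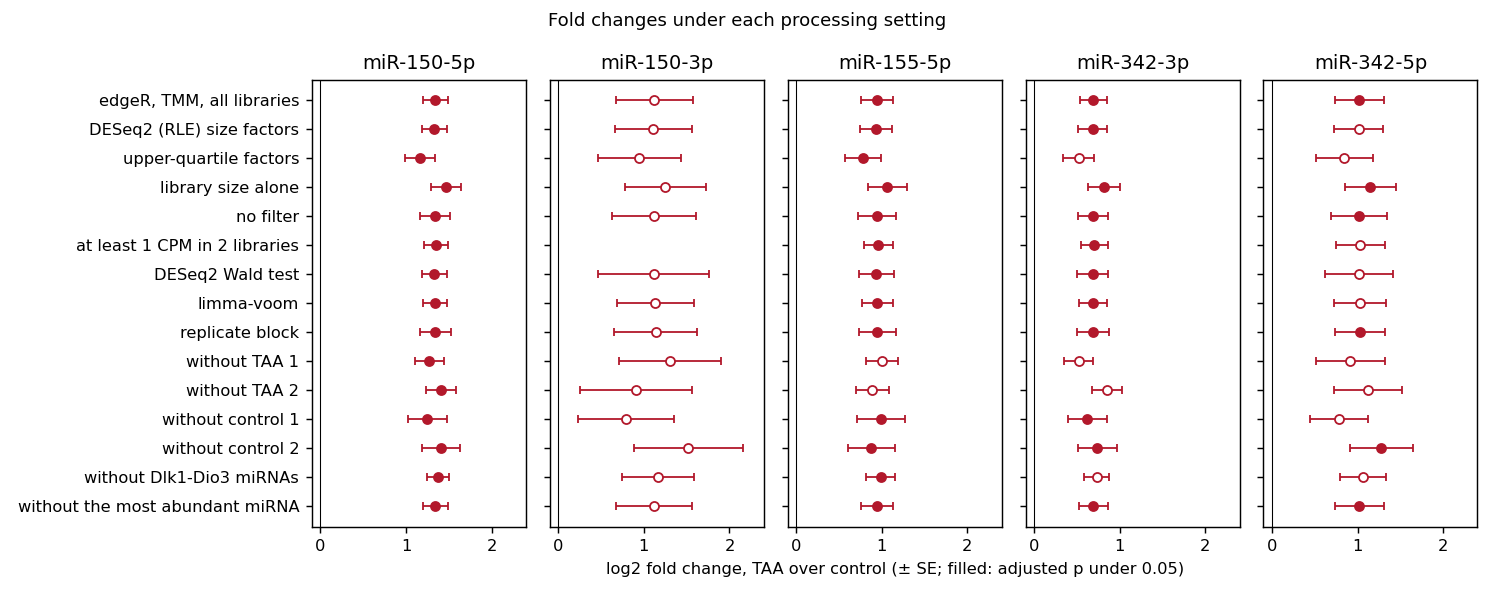
Log2 fold change of TAA-treated over control liver with its standard error for each lymphocyte miRNA (panels) under each processing setting (lines), filled where the adjusted p is under 0.05. All estimates lie above 0; miR-150-5p is filled throughout and miR-150-3p nowhere.

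Ratios between members within a library need no scaling factor. miR-150-5p and miR-342-3p were almost equally abundant in control liver and not in TAA-treated liver. There were 1.52 and 1.74 counts of miR-150-5p per count of miR-342-3p in TAA 1 and TAA 2, against 1.02 and 1.05 in control 1 and control 2. The difference in log2 ratio was 0.66, and it lay between 0.56 and 0.76 with each library left out. For miR-150-5p per miR-155-5p the ratios were 17.0 and 14.3 in TAA 1 and TAA 2, against 10.8 and 13.1 in control 1 and control 2. Those groups did not overlap, but TAA 2 and control 2 were close.

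The ratio of miR-155-5p to miR-342-3p overlapped between groups. There were 0.0891 and 0.122 counts of miR-155-5p per count of miR-342-3p in TAA 1 and TAA 2, against 0.0941 and 0.0800 in control 1 and control 2. Of the 10 pairs of members, 4 had ratios that did not overlap between groups: miR-150-5p over miR-155-5p, over miR-342-3p and over miR-342-5p, and miR-342-3p over miR-342-5p. Over all pairs of the 644 miRNAs tested 59.1% did not overlap, so the share among the members was not above the background. An exact permutation test of 2 libraries against 2 (two-sided) gives no p below 0.333, and those 4 pairs reached that value (0.833 adjusted over 10 pairs). With 4 libraries this test cannot pass the 0.05 threshold, so it cannot show whether members rose by unlike amounts.

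**Figure D4:**
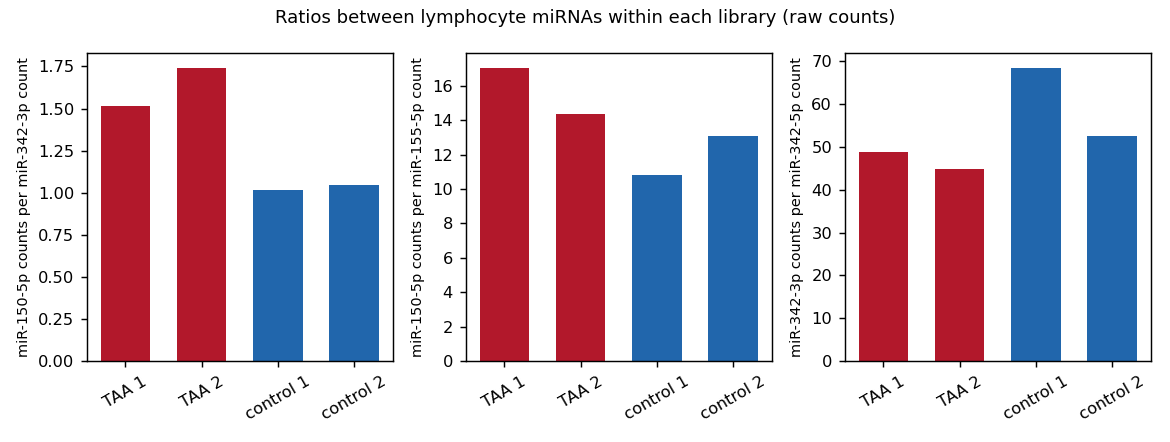
Ratios of raw counts within each library, on linear axes that start at 0, with 1 bar per library. miR-150-5p per miR-342-3p stands at 1.52 and 1.74 in the TAA libraries, above 1.02 and 1.05 in the controls.

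The balance of the arms of each hairpin was measured next, since the minor arm is mostly degraded after loading. The 3p arm made up 0.374% and 0.541% of miR-150 counts in TAA 1 and TAA 2 (95% Wilson intervals 0.265% to 0.527% and 0.408% to 0.716%), against 0.419% and 0.623% in control 1 and control 2 (0.240% to 0.731% and 0.404% to 0.960%). These intervals overlapped throughout. The 5p arm made up 2.003% and 2.18% of miR-342 counts in TAA 1 and TAA 2 (1.67% to 2.399% and 1.82% to 2.61%), against 1.44% and 1.87% in control 1 and control 2 (1.06% to 1.95% and 1.45% to 2.405%). Both TAA shares lay above both controls, with overlapping intervals. The log2 of 5p over 3p differed between TAA-treated and control liver by 0.21 (SE 0.29) for miR-150 and by 0.35 (SE 0.21) for miR-342, and neither passed limma's test (adjusted p = 0.985 for both). Of the 150 hairpins tested 0.0% passed, and 5 had an unadjusted p under 0.05.

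In the miR-155 hairpin the 3p arm made up 0.988% of counts in TAA 1 and 0.377% in control 1. It had no counts in TAA 2 and control 2, which allows a share of up to 0.620% and 1.55% there (upper 95% Wilson bound). All 3 hairpins thus gave nearly all their counts to 1 arm, the 5p arm in miR-150 and miR-155 and the 3p arm in miR-342.

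Other miRNAs of blood cells were read beside the members, from lists of known markers. Of 7 pan-leukocyte and myeloid miRNAs, 1 rose and 0 fell, where 14.0% of all miRNAs rose. Most of those increases lay in the Dlk1-Dio3 interval, and 28 of the 574 miRNAs tested outside it rose. An unadjusted edgeR p under 0.05 was found for 4 of the 7, and for 165 of all 644 miRNAs tested. These 4 included miR-146a-3p, which was lower in TAA-treated liver. Of the 7, 4 had higher CPM in each TAA library than in either control, which held for 29.7% of all miRNAs tested. In contrast, miR-146a-3p, the minor strand of miR-146a, had lower CPM in each TAA library (log2 fold change -1.22, edgeR adjusted p = 0.159). The median log2 fold change of the 7 was 0.47. The count depended on the processing. None of the 7 rose without TAA 1, TAA 2 or control 1, with DESeq2 size factors or upper-quartile factors in edgeR, or without the Dlk1-Dio3 miRNAs, while 5 rose without control 2 and 4 with library size alone or with no filter. miR-146b-5p, an inhibitor of inflammatory signalling, rose to 27.1 and 20.4 CPM in TAA 1 and TAA 2, against 13.4 and 15.3 CPM in control 1 and control 2 (log2 fold change 0.72, edgeR adjusted p = 0.0471). miR-142a-3p, a miRNA of all blood cells, measured 106 and 104 CPM in TAA 1 and TAA 2, against 63.1 and 82.4 CPM in control 1 and control 2 (adjusted p = 0.0756). miR-142a-5p, the most abundant of them, measured 1488 and 1290 CPM in TAA 1 and TAA 2, against 706 and 1164 CPM in control 1 and control 2 (adjusted p = 0.138).

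Relative to these, miR-150-5p was higher in TAA-treated liver. There were 12.6 and 13.3 counts of miR-150-5p per 100 of miR-142a-5p in TAA 1 and TAA 2, against 9.54 and 6.41 in control 1 and control 2. Per 100 counts of miR-142a-3p there were 177 and 165 in the TAA libraries, against 107 and 90.6 in the controls. The groups also did not overlap per 100 counts of miR-223-3p, a miRNA of granulocytes, at 331 and 347 in the TAA libraries, against 219 and 131 in the controls. For miR-342-3p the same ratios overlapped: per 100 counts of miR-142a-3p there were 117 and 95.03 in the TAA libraries, against 105 and 86.6 in the controls. For miR-155-5p they overlapped per 100 counts of miR-142a-5p, at 0.741 and 0.931 in the TAA libraries, against 0.883 and 0.490 in the controls, and per 100 of miR-223-3p. Per 100 counts of miR-142a-3p they did not overlap, at 10.4 and 11.54 in the TAA libraries, against 9.88 and 6.93 in the controls. Over all pairs of the 644 miRNAs tested, 59.1% had count ratios that did not overlap between groups, so a lack of overlap was common. These ratios to other miRNAs are descriptions and were given no test.

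Lists tied to lymphoid development and proliferation held no member that passed the edgeR test with TMM scaling and the filter on low counts. Of the 4 tested miR-181 family members, which act in T-cell development, 0 passed in edgeR, DESeq2 or limma-voom, and 0 had an unadjusted p under 0.05. Their log2 fold changes had a median of 0.07. The highest was that of miR-181b-5p, at 0.19 (SE 0.15, edgeR adjusted p = 0.499), with higher CPM in each TAA library than in either control. miR-181a-5p, the most abundant, measured 3397 and 2884 CPM in TAA 1 and TAA 2, against 3137 and 3036 CPM in control 1 and control 2, so the groups overlapped. In those 3 fits the same counts of 0 held for the 6 miRNAs of the miR-17-92 cluster, which drives lymphocyte proliferation, with a median of -0.18. Without control 2 miR-19a-3p and miR-19b-3p fell, and with no filter on low counts miR-19b-3p fell. The most abundant of the cluster, miR-92a-3p, was close to even (edgeR log2 fold change 0.05, SE 0.10, adjusted p = 0.839). On that scale miR-19b-3p measured -0.48 (SE 0.27, adjusted p = 0.333) and miR-18a-5p 0.33 (SE 0.20, adjusted p = 0.369). Of the 6, 1 (miR-18a-5p) had higher CPM in each TAA library than in either control, and 2 had lower.

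Markers of other cell types moved as follows in the same libraries. All 5 erythroid miRNAs, which mark red blood cells, rose. The median of their log2 fold changes was 2.23 with all libraries and 1.03 without TAA 2, where 0 of the 5 passed, as with the DESeq2 test and without the Dlk1-Dio3 miRNAs. Their summed level was 731 and 2627 CPM in TAA 1 and TAA 2, against 445 and 274 CPM in control 1 and control 2. The summed level of the 5 lymphocyte miRNAs was 326 and 286 CPM in TAA 1 and TAA 2, against 141 and 154 CPM in control 1 and control 2. Of the TAA libraries, TAA 2 had the higher erythroid sum and the lower lymphocyte sum. The members differed in this: miR-155-5p measured 11.02 CPM in TAA 1 and 12.0 CPM in TAA 2, and miR-150-3p 0.70 and 0.94 CPM. Whether blood content contributed to these levels was not tested. Without TAA 2 the log2 fold change was 1.41 for miR-150-5p, 0.89 for miR-155-5p and 0.85 for miR-342-3p.

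Of the 7 hepatocyte miRNAs 0 passed in edgeR, DESeq2 or limma-voom, 2 had an unadjusted p under 0.05, and the median log2 fold change was -0.19. Their sum took 318246 and 329186 CPM in the TAA libraries, against 350670 and 381108 CPM in the controls. Of the 7, 5 had lower CPM in each TAA library than in either control, which held for 165 of all 644 miRNAs tested. Without control 1 miR-148a-3p fell, without control 2 or with no filter miR-802-5p fell, and with upper-quartile factors miR-122-3p and miR-802-5p fell. miR-192-5p, the most abundant of them, measured 225049 and 231934 CPM in TAA 1 and TAA 2, against 244876 and 264434 CPM in control 1 and control 2. It was the most abundant miRNA of the liver libraries in both groups. Of the 2 endothelial miRNAs 0 passed in any of those tools, with 0 at an unadjusted p under 0.05 and log2 fold changes of -0.17 for miR-126a-5p and -0.04 for miR-126a-3p. Of 6 mesenchymal miRNAs 1 rose and 0 fell in edgeR, with log2 fold changes from -0.41 to 0.65 and a median of 0.39. Unadjusted p was under 0.05 for 3 of the 6. Higher CPM in each TAA library than in either control held for 3 (29.7% of all miRNAs tested). With the DESeq2 test or limma-voom 2 rose, miR-214-3p and miR-214-5p. In edgeR miR-214-5p had a log2 fold change of 0.60 (adjusted p = 0.0586) and miR-199a-3p of 0.51 (adjusted p = 0.0842). The summed level of the 6, mostly miR-143-3p, overlapped between groups. miR-214-3p, which is expressed in stellate cells, rose to 96.0 and 77.1 CPM in TAA 1 and TAA 2, against 59.3 and 50.9 CPM in control 1 and control 2 (log2 fold change 0.65, edgeR adjusted p = 0.0354), and did not pass without TAA 1, TAA 2 or control 2, with upper-quartile factors, or without the Dlk1-Dio3 miRNAs. The most abundant of them, miR-143-3p, had a log2 fold change of -0.04, and miR-145a-5p fell without control 2. Whether cell mixture contributed to the values of the lymphocyte miRNAs was not tested.

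**Figure D5:**
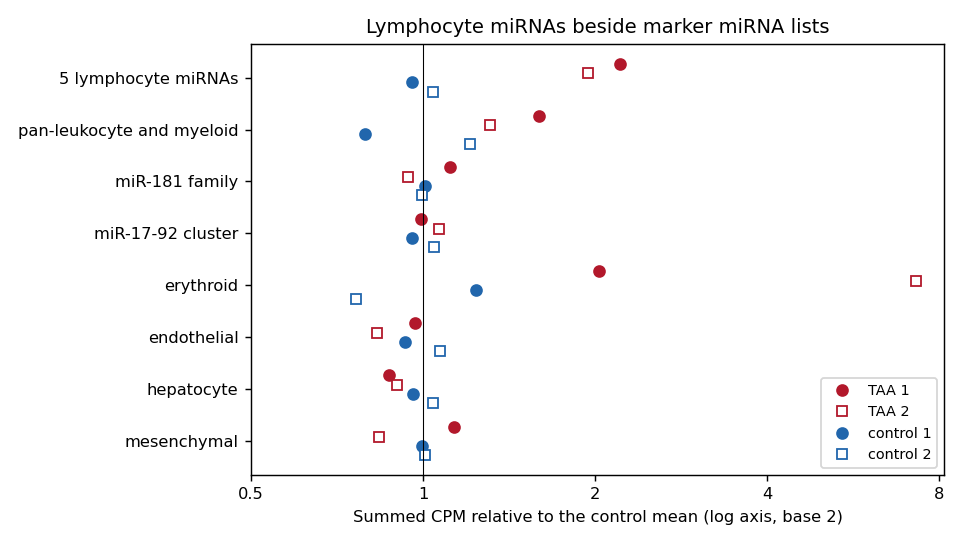
Summed CPM of the 5 lymphocyte miRNAs and of each marker list in each library, relative to the mean of the controls, on a log axis of base 2. The lymphocyte miRNAs stand at 2.21 and 1.94 in TAA 1 and TAA 2; the erythroid list stands at 2.03 and 7.30, and the miR-181 list at 1.11 and 0.940.

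The chromosomal neighbours of the hairpins gave a further reference. Mir342 lies 794 kb before Dlk1, where the imprinted Dlk1-Dio3 region starts, and that region held 62 miRNAs that rose of 70 tested. Within 1000 kb of Mir342 lay hairpins of 37 listed miRNAs of that region, of which 20 were tested and 17 rose. The median log2 fold change of those tested was 3.31. Mir345 lies between Mir342 and Dlk1, 178 kb after Mir342, and neither of its arms rose. miR-345-5p measured 58.0 and 58.7 CPM in TAA 1 and TAA 2, against 74.0 and 73.1 CPM in control 1 and control 2 (edgeR log2 fold change -0.33, SE 0.14, adjusted p = 0.187). miR-345-3p measured 37.2 and 41.3 CPM in TAA 1 and TAA 2, against 55.8 and 40.9 CPM in control 1 and control 2 (log2 fold change -0.30, SE 0.19, adjusted p = 0.390).

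Within 1000 kb of Mir150 lay hairpins of 10 other listed miRNAs, of which 2 were tested and 0 passed. miR-5121, whose hairpin is 5.10 kb from Mir150 on the other strand, measured 76.9 and 76.6 CPM in TAA 1 and TAA 2, against 74.6 and 50.0 CPM in control 1 and control 2 (edgeR log2 fold change 0.30, SE 0.20, adjusted p = 0.413). For miR-7052-3p the log2 fold change was 0.33 (SE 0.39). No other listed hairpin lay within that distance of Mir155.

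Finally, the miRNAs with the most similar profile over the 4 libraries were found, by the Euclidean distance between mean-centred log2 CPM, among miRNAs with a mean of at least 10 CPM. For miR-150-5p the 3 nearest of 272 were miR-34c-5p, miR-34a-5p and miR-149-5p, at distances of 0.37, 0.495 and 0.55, where the median miRNA was at 1.47. miR-155-5p, whose own mean lay under 10 CPM, was at 0.475 from miR-150-5p. For miR-155-5p they were miR-149-5p, miR-31-5p and miR-214-5p, at 0.21, 0.38 and 0.38. For miR-342-3p they were miR-146b-5p, miR-212-5p and miR-214-5p, at 0.092, 0.19 and 0.21. miR-342-3p was the fifth nearest to miR-150-5p, while miR-150-5p was 65th nearest to miR-342-3p. With 4 libraries these distances mostly reflect the size of the difference between groups, and they are a description with no test.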

How the data were processed

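Small RNA was isolated from liver with an miRNeasy kit and made into TruSeq small RNA libraries, 2 from mice given thioacetamide (TAA) and 2 from controls, per the labels' protocols. The deposited values are raw counts of reads for each mature miRNA, and the submitters' processing notes name Bowtie, HTSeq and mm10 without versions or settings. Each file lists 1907 miRNAs and 5 summary rows that were left out; reads outside miRNAs, ambiguous or not aligned were 31.3% to 34.6% of all reads.

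Counts were tested with edgeR 4.0.16 in R 4.3.3 (filterByExpr, TMM, quasi-likelihood F test) at a threshold of 0.05, with Benjamini-Hochberg adjustment over 644 miRNAs. SE is the log2 fold change over the square root of F. Arm ratios (5p over 3p, 0.5 added to each count) were tested with limma 3.58.1 over 150 hairpins averaging 20 counts or more per arm, and ratios between members with an exact permutation test. Wilson and Poisson intervals are 95% and cover counting error only. Both fits were tested on simulated data. Chi-square per degree of freedom between replicates was 324 (TAA) and 237 (control), above sampling noise. Other scalings and filters, DESeq2 1.42.0, limma-voom, a replicate block, each library left out, and removal of the Dlk1-Dio3 miRNAs or of the most abundant miRNA were tried.

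The members, marker lists and tests were chosen with earlier results of these data known. Other miRNAs were chosen by rule: miR-155-3p, for each list those with the lowest p (up to 3) and the most abundant, those of hairpins near a member, and the 3 closest in profile. Not all those chosen are described. Members of lists named for a call under another setting, and miR-146a-3p, were named after their values were seen. Positions are from GENCODE M21 (GRCm38, which is mm10) and sequences from RefSeq (GRCm38.p6).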

Additional observations from a re-analysis of the deposited data

How the results depend on the processing

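Of the members, miR-150-5p kept its direction and its side of the threshold under all 14 alternatives and miR-150-3p stayed outside it in all 13 that tested it. miR-342-5p did not pass with DESeq2 size factors in edgeR (log2 fold change 1.01), upper-quartile factors (0.85), a minimum of 1 CPM (1.03), the DESeq2 test (1.01), limma-voom (1.03) or without the Dlk1-Dio3 miRNAs (1.06), and miR-342-3p did not with upper-quartile factors (0.52) or without those miRNAs (0.73); the cause was not tested. With upper-quartile factors and without the Dlk1-Dio3 miRNAs, 2 members rose in each case, where 83 and 7 of all miRNAs tested rose. The median over all miRNAs lay at -0.17 with upper-quartile factors and at 0.12 with library size alone. Relative to that median miR-342-3p stood at 0.69 and 0.698 and miR-150-5p at 1.34 and 1.35 with these factors. With each library left out the log2 fold change ran from 0.88 to 1.004 for miR-155-5p, from 0.52 to 0.85 for miR-342-3p and from 0.78 to 1.28 for miR-342-5p, and 1 to 4 members rose. Over all miRNAs, 107 changed, 90 higher and 17 lower. Leaving out a library gave 49 to 131 (47 to 98 higher, 2 to 33 lower), and removing the Dlk1-Dio3 miRNAs gave 12 (7 higher, 5 lower). Upper-quartile factors and no filter each gave 32 lower. The difference in arm ratio of miR-150, and in the log2 ratio of its arms, ran from -0.062 to 0.49 with a library left out. The ratio of miR-150-3p to miR-155-5p ran from -0.23 to 0.60, that of miR-150-3p to miR-342-5p from -0.21 to 0.40 and that of miR-155-5p to miR-342-5p from -0.39 to 0.22. The replicate block gave 110 changed miRNAs, 92 of them higher, with 4 members higher and a log2 fold change of 1.34 for miR-150-5p. The labels tie no control number to a TAA number. The deviations of TAA 1 and control 1 had a correlation of -0.0051. With 2 libraries per group this value cannot settle whether the numbers pair the libraries. Where a group was left with 1 library, it was assumed to vary like the other group. The minor arms, with at most 115 counts, are limited by depth.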
